A study of Chlorocebus sabaeus with 45 samples.

Results

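The BCL2 family decides at the mitochondrion whether a cell lives or dies. Its members were taken from the deposited tables by gene symbol, from a list of 10 genes: the survival members BCL2, BCL2L1 (BCL-XL), MCL1 and BCL2A1, the death effectors BAX and BAK1, and the BH3-only members BAD, BID, BCL2L11 (BIM) and BBC3 (PUMA). Of the 10 genes 9 were found among the 33994 rows of the tables, and all 9 were among the 18753 genes tested. MCL1 was not matched by symbol or gene identifier and is not analysed here, so that the survival group holds 3 genes and the death group 6.

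The animals were 15 juvenile male vervet monkeys (Chlorocebus sabaeus) from the island of St. Kitts, wild-born and taken from different troops. Capture, transport and single-cage quarantine served as the psychosocial stressor. Whole blood was drawn from every animal on day 0 (Tp1), before the move, and on days 3 (Tp2) and 14 (Tp4) of the stressor, which gave 45 libraries in 3 groups of 15. The sample labels give day 14 for Tp4, and the design text gives day 15. No animal was left unstressed, so that each animal is its own control and time, age and stressor cannot be told apart. Blood on day 0 was drawn at the capture site with ketamine and xylazine as sedatives, and on the later days in quarantine with dexmedetomidine and midazolam. Sedative and site thus changed together with the stressor and cannot be told apart from it in any comparison with day 0. Earlier blood draws also rose in number with the day, and cannot be told apart from the stressor in any of the comparisons. The study limited the weekly volume of blood to prevent anemia.

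In healthy cells the survival proteins hold BAX and BAK1 in check on the outer mitochondrial membrane. BH3-only proteins, which are raised or activated by damage, growth factor loss or death receptors, bind the survival proteins or activate BAX and BAK1 directly. Freed BAX and BAK1 open the membrane, cytochrome c escapes, and APAF1 and caspases are activated. In blood the survival members divide by cell type: BCL2 is known from lymphocytes, BCL2A1 from neutrophils and other activated leukocytes, and BCL2L1 from maturing red cells and platelets.

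Between 13216275 and 31469332 fragments per library fell on genes, and the least abundant member reading, BCL2L11 in 1 library of day 14, rested on 57 fragments. Values are FPKM (fragments per kilobase of gene, relative to the fragments on all genes of the library). They were brought to a common scale with TMM factors (trimmed mean of M values) and are called scaled FPKM below. Changes are log2 fold changes of scaled FPKM + 0.1 from limma, with p-values adjusted by Benjamini-Hochberg over all tested genes and a threshold of 0.05. The 20 most abundant genes held, by median, 10% of a day 0 library, 13.9% of a day 3 library and 25.5% of a day 14 library. The 3 comparisons set day 3 against day 0, day 14 against day 0, and day 14 against day 3. In this order the typical tested gene had a median log2 fold change of 0.01, −0.02 and −0.02 with TMM, and of −0.03, −0.36 and −0.35 without it, so that member changes on day 14 are to be read relative to it. In whole blood, fewer cells of a type and less RNA per cell cannot be told apart.

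The 3 survival members moved apart from each other. No death member passed the test in the fit with TMM and without the animal as a block. BCL2L1 rose on day 3 and on day 14, BCL2A1 fell on day 3, and BCL2 fell between day 3 and day 14. On day 3 vs. day 0 limma called 2 of the 9 members, 1 up and 1 down, where it called 12.2% of all tested genes (6.01% up, 6.19% down). On day 14 vs. day 0 it called 1 member, up, against 36.0% of all genes (18.8% up, 17.3% down). Between day 3 and day 14 it called 1 member, down, against 13.4% of all genes (8.38% up, 5.01% down). With the animal as a block, BCL2 was also called down on day 14 vs. day 0, beside 44.0% of all genes called. BCL2L11 was then also called down between day 3 and day 14, beside 23.7%. Without TMM the calls leaned downward for members and for all genes. On day 14 against day 0, 1 member was then up and 7 were down, beside 7.79% of all genes up and 41.8% down. The 7 held 2 of 2 death effectors and 3 of 4 BH3-only members. On day 14 against day 3, 4 members were down, beside 3.23% of all genes up and 35.2% down. RNA integrity, a measure of how intact the extracted RNA was, averaged higher on each later day, so it moved with the comparisons. In a fit with it as a covariate, 7.66%, 19.9% and 6.05% of all genes were called on day 3 vs. day 0, day 14 vs. day 0 and day 14 vs. day 3. The calls of BCL2A1 on day 3 and of BCL2 between day 3 and day 14 were lost in that fit. Its part in the results was not tested beyond that fit. The plot of every animal's values shows the wide panels of BCL2L1 and BCL2A1 beside the narrow ones of the other members.

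**Figure D1:**
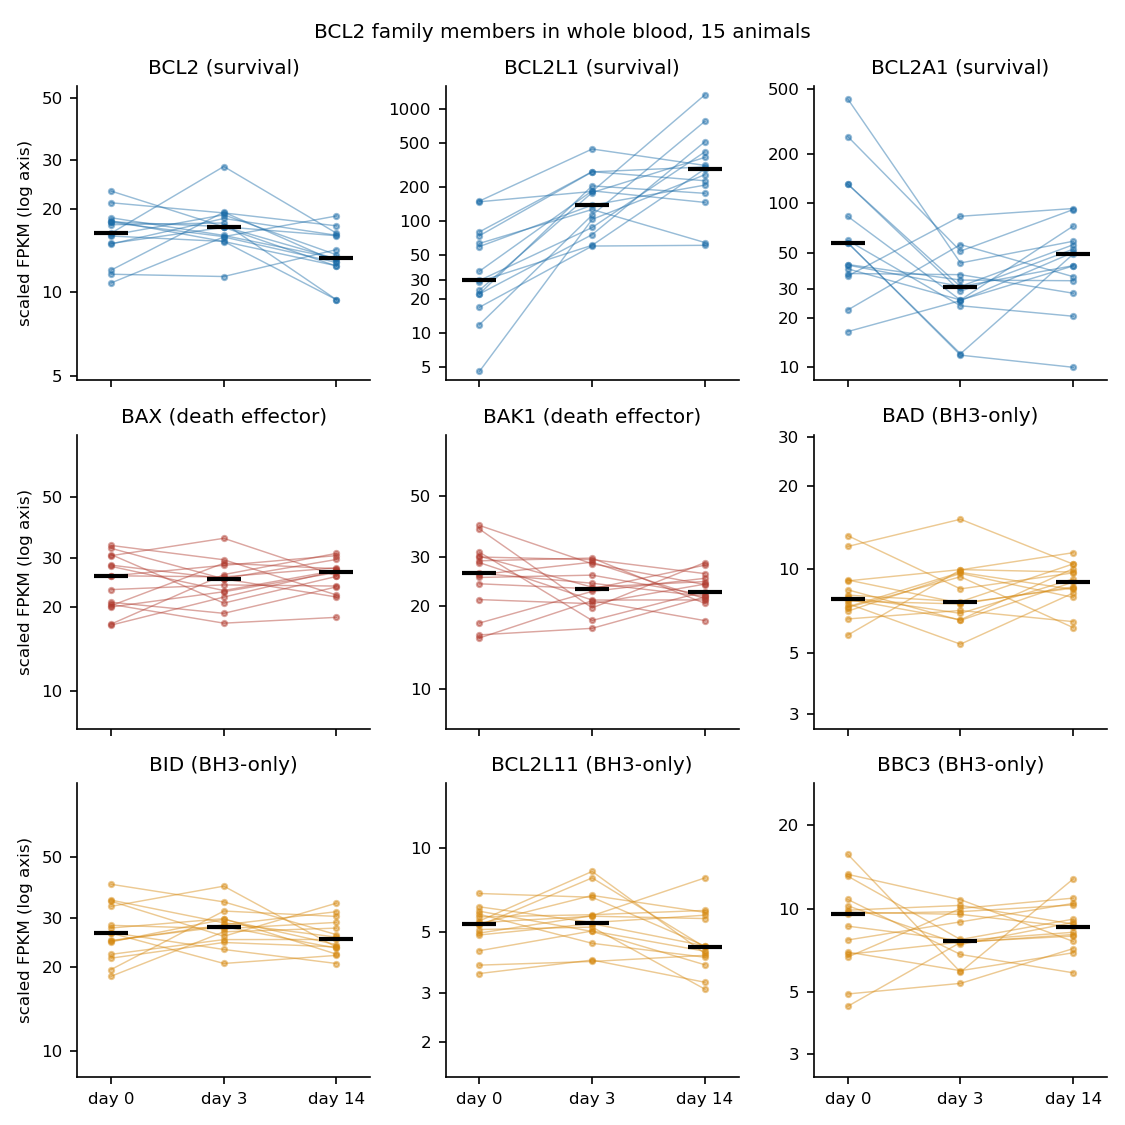
Scaled FPKM (log axis) of the 9 members on days 0, 3 and 14; each line is 1 of 15 animals and the black bar is the median of the day. BCL2L1 climbs in 15 of 15 animals from day 0 to day 3, while the 6 death members (red and orange) stay within a narrow band.

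BCL2L1 is the survival member that protects red cell precursors and sets platelet lifespan. Its scaled FPKM on day 0 had a lowest value of 4.54, a median of 29.4 and a highest value of 151. On day 3 these were 59.8, 139 and 439, and on day 14 60.7, 292 and 1337. On day 3 7 of 15 libraries, and on day 14 12 of 15, lay above every day 0 library. The day 3 and day 0 ranges thus overlapped widely, and the day 14 and day 0 ranges less.

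The mean of BCL2L1 went from 51.4 ± 45.9 scaled FPKM (SD, n = 15) on day 0 to 167 ± 102 on day 3 and 364 ± 324 on day 14. The log2 fold change was 2.01 on day 3 (standard error 0.41, limma adjusted p = 0.00143) and 2.92 on day 14 (standard error 0.41, adjusted p = 1.38e-06). These are 4.03-fold and 7.59-fold, with 95% intervals of 2.29 to 7.09 and 4.31 to 13.4. BCL2L1 was higher than on day 0 in 15 of 15 animals at both later days, with or without TMM. Among 18753 tested genes 10 had a higher log2 fold change on day 3 and 11 on day 14.

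From day 3 to day 14 the BCL2L1 log2 fold change was 0.92 (95% interval 0.10 to 1.73, adjusted p = 0.116), which did not pass the test. It was higher in 10 animals and lower in 5. Animals differed in course. Animal 9 began lowest, at 4.54, and reached 103 and 259, animal 15 went from 149 to 184 and then to 1337, and animal 13 went from 63.1 to 127 and back to 64.3. The calls on day 3 and day 14 held in each of the 15 fits that left out 1 animal, with adjusted p between 0.00135 and 0.00562 on day 3 and between 6.47e-07 and 1.29e-05 on day 14.

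Erythroid markers moved with BCL2L1. Of 11 erythroid markers tested (among them ALAS2, SLC4A1 and HEMGN), 6 rose on day 3 (9 with the animal block, beside 19.2% of all genes called) and 11 on day 14, with a median log2 fold change of 1.47 and 2.70, and none was at 0 in all libraries. Their summed scaled FPKM ran from 468 to 24560 on day 0, from 3962 to 45070 on day 3 and from 7889 to 66230 on day 14. Over the 45 libraries, 3 from each animal, BCL2L1 and the erythroid sum had Pearson r = 0.938 (Spearman rho 0.934), and r = 0.892 after the day means were removed. Of 9 platelet markers all 9 rose on day 3 and 3 on day 14 (6 with the animal block, 1 without TMM, 0 with RNA integrity as a covariate), and r of BCL2L1 with their sum was 0.568, or 0.366 after the day means were removed. The sum of 8 NK cell markers was higher than on day 0 in 14 of 15 animals at both later days, and 2 of the 8 rose on day 3 (5 with the block, 0 without TMM and 1 with RNA integrity as a covariate, limma) and 5 on day 14 (6, 4 and 4). Its r with BCL2L1 was 0.452, and −0.103 after the day means were removed. With the B cell sum r of BCL2L1 was −0.515, and −0.636 after the day means were removed. The part of these cells in the rise of BCL2L1 was not tested.

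**Figure D2:**
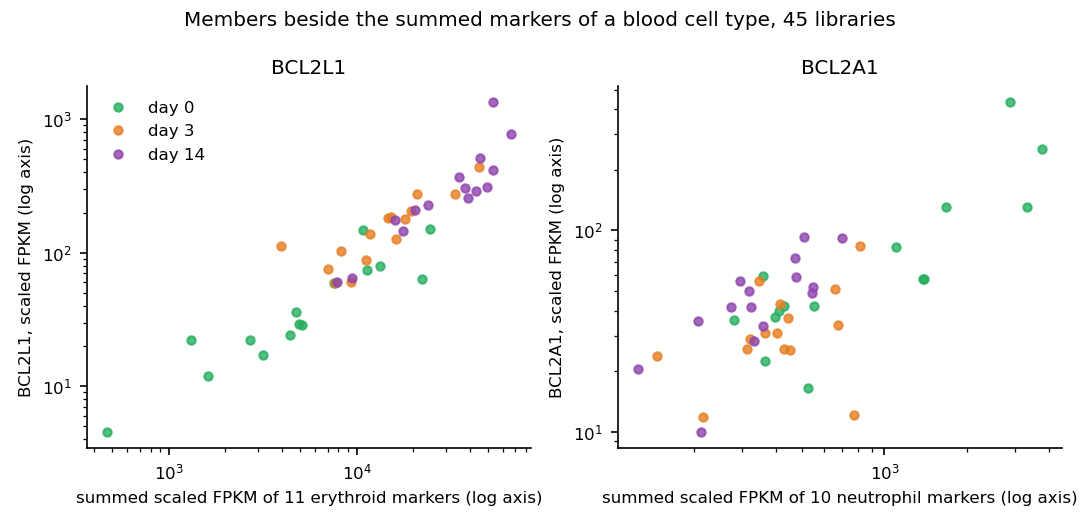
Scaled FPKM of BCL2L1 against the summed scaled FPKM of 11 erythroid markers, and of BCL2A1 against that of 10 neutrophil markers (all axes log), 1 point per library coloured by day. BCL2L1 lies close to a line with the erythroid sum (r = 0.938), while BCL2A1 is highest in the day 0 libraries with the highest neutrophil sums (r = 0.739).

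BCL2A1 is a short-lived survival protein that NF-κB induces in neutrophils, monocytes and activated B cells. On day 0 it had the highest coefficient of variation of the members, 116% of its mean, with a lowest scaled FPKM of 16.5, a median of 57.2 and a highest of 432. Its lowest, median and highest values were 11.8, 31.0 and 83.2 on day 3 and 9.99, 48.9 and 92.8 on day 14. The upper end of day 0 was held by animals 11 (432), 15 (255), 7 (131) and 2 (131), which stood at 43.2, 51.0, 29.0 and 31.0 on day 3. All 3 ranges overlapped, and 2 libraries of day 3 and 1 of day 14 lay below every day 0 library.

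BCL2A1 averaged 96.1 ± 111 scaled FPKM (SD, n = 15) before the move, 34.6 ± 18.2 on day 3 and 48.9 ± 23.5 on day 14. On day 3 it fell by 1.04 on the log2 scale (standard error 0.34, limma adjusted p = 0.0388) and was lower in 12 of 15 animals. With 1 animal left out the log2 fold change stayed between −1.21 and −0.88, but adjusted p lay near the threshold. The call was lost without animal 2, 4, 7, 8, 10, 11, 13 or 15, with adjusted p between 0.0583 and 0.0912. It was also lost when RNA integrity entered the fit as a covariate (log2 fold change −1.07, adjusted p = 0.0595) and without a filter on low values (0.0674). On day 14 vs. day 0 the log2 fold change was −0.56 (95% interval −1.25 to 0.13, adjusted p = 0.207), with 10 animals lower.

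Neutrophil markers, like BCL2A1, were lower on day 3 than before the move. Of 10 markers (among them CXCR2, CSF3R, FPR1 and MGAM), 6 fell on day 3 and 10 fell on day 14, with a median log2 fold change of −1.19 and −1.30, and none was at 0 in all libraries. With RNA integrity as a covariate 4 passed on each day. From day 3 to day 14 BCL2A1 and these markers differed in sign. BCL2A1 had a log2 fold change of 0.48 (adjusted p = 0.351) and was higher in 10 of 15 animals, while the neutrophil sum was higher in 4. The markers' median was −0.245, and none passed in limma with TMM (4 fell without it). Their summed scaled FPKM ran from 280 to 3770 on day 0, from 147 to 812 on day 3 and from 125 to 701 on day 14. BCL2A1 had r = 0.739 with the neutrophil sum and r = 0.750 with the sum of 8 monocyte markers over the 45 libraries. With the B cell sum r was −0.641 (−0.696 after the day means were removed). Of the monocyte markers 2 rose on day 3 and 2 fell on day 14 with TMM, against 0 and 4 without it and 1 and 0 with RNA integrity as a covariate. From day 3 to day 14 their median was −0.476, 1 of 8 fell (5 with the animal block), and their sum was higher in 8 of 15 animals. The part of these cells in the fall of BCL2A1 was not tested.

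BCL2 itself, the founding survival member, is known for keeping resting lymphocytes alive. Its scaled FPKM had a lowest, median and highest value of 10.8, 16.3 and 23.1 on day 0, of 11.4, 17.2 and 28.4 on day 3, and of 9.38, 13.2 and 18.8 on day 14. The ranges of all 3 days overlapped, and 2 libraries of day 14 lay below every one of day 3.

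BCL2 averaged 16.4 ± 3.36 scaled FPKM (SD, n = 15) before the move, 17.5 ± 3.63 on day 3 and 13.9 ± 2.66 on day 14. From day 3 to day 14 BCL2 fell by 0.34 on the log2 scale (standard error 0.11, limma adjusted p = 0.0327), to 0.791 of its day 3 level (95% interval 0.681 to 0.919), and was lower in 13 of 15 animals. With 1 animal left out the BCL2 log2 fold change stayed between −0.39 and −0.30. The call was lost when that animal was 1, 2, 8, 9, 12 or 14 (adjusted p between 0.0503 and 0.0774), with RNA integrity as a covariate (0.0947) and without a filter on low values (0.0505). On day 14 vs. day 0 the log2 fold change was −0.24 (adjusted p = 0.0753). With the animal as a block, since each animal was sampled on every day, BCL2 passed on day 14 vs. day 0 as well (adjusted p = 0.0400), but not with block and RNA integrity covariate together (0.347). On day 3 vs. day 0 its log2 fold change was 0.10 (95% interval −0.12 to 0.31, adjusted p = 0.619).

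B cell markers fell over the same interval as BCL2. Of 9 B cell markers 4 fell and none rose from day 3 to day 14, with a median log2 fold change of −0.65 (8 fell without TMM, 6 with the block and 2 with RNA integrity as a covariate). Their summed scaled FPKM ran from 203 to 562 on day 3 and from 162 to 401 on day 14. Over this interval the sum was higher in 1 of 15 animals and BCL2 in 2, and they moved in the same direction in 14. As nearly all animals were lower in each, most of that agreement follows without any link between them. Of 9 T cell markers 3 rose and none fell with TMM, 4 fell and none rose without it, and 0 passed with RNA integrity as a covariate (limma). Other cell types moved over this interval too. Of 8 monocyte markers 1 fell (6 without TMM, 5 with the block and 0 with the covariate), with a median of −0.476. Of 9 platelet markers 3 fell (8 without TMM, 6 with the block and 2 with the covariate), with a median of −0.948. The NK cell sum was higher on day 14 than on day 3 in 14 of 15 animals and the erythroid sum in 13. Over the 45 libraries r of BCL2 was 0.395 with the B cell sum and −0.248 with the T cell sum. After the day means were removed these were 0.292 and −0.0839. The part of any of these cell types was not tested.

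The death effectors BAX and BAK1, the pore formers that the rest of the family controls, were held at similar levels. BAX had a lowest, median and highest scaled FPKM of 17.2, 25.9 and 33.4 on day 0, of 17.5, 25.3 and 35.4 on day 3 and of 18.4, 26.7 and 31.3 on day 14. Its log2 fold change was 0.00 on day 3 (95% interval −0.20 to 0.21) and 0.07 on day 14 (−0.13 to 0.28), with adjusted p = 0.986 and 0.604. Without TMM the day 14 value had the opposite sign and passed the test (−0.35, adjusted p = 0.0260).

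BAK1 had a lowest, median and highest scaled FPKM of 15.3, 26.3 and 39.1 on day 0, of 16.6, 23.1 and 29.8 on day 3 and of 17.7, 22.6 and 28.7 on day 14. Its log2 fold change was −0.15 at both later days (95% intervals −0.37 to 0.08, adjusted p = 0.443 and 0.318). Without TMM BAK1 was called down on day 14 against day 0 (−0.57, adjusted p = 0.00226, lower in 15 of 15 animals) and against day 3 (−0.38, adjusted p = 0.0447). The groups overlapped throughout for both effectors. Over the 3 comparisons the 95% intervals of the fold ran from 0.872 to 1.21 for BAX and from 0.773 to 1.17 for BAK1. The 2 death effectors had a median log2 fold change of −0.07, −0.04 and 0.03 in the 3 comparisons, in the order given above.

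The BH3-only members are the sensors that start the pathway, and 0 of 4 passed the test in any comparison in the fit with TMM and without an animal block. Without TMM BID (−0.47, adjusted p = 0.00351, lower in 15 of 15 animals), BCL2L11 (−0.58, 0.00301) and BBC3 (−0.44, 0.0166) were called down by limma on day 14 against day 0, and BID (−0.50, 0.00534) and BCL2L11 (−0.64, 0.00373) against day 3. BID, which caspase-8 cleaves to link death receptors to mitochondria, was the most abundant of them, with medians of 26.5, 28.0 and 25.2 scaled FPKM on days 0, 3 and 14 and log2 fold changes from −0.12 to 0.07. BAD, which growth factor signalling through AKT keeps inactive, had medians of 7.78, 7.63 and 8.98 and log2 fold changes from 0.02 to 0.12. BBC3, which binds all of the survival proteins, had medians of 9.59, 7.67 and 8.57 and log2 fold changes from −0.14 to 0.12. BID overlaps BCL2L13 in the RefSeq annotation of a newer assembly; the libraries were stranded, and whether counting used the strand is not given in the sources used here.

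BCL2L11, which growth factor withdrawal induces through FOXO3, was the least abundant member on every day, with medians of 5.35, 5.40 and 4.41 scaled FPKM. Its lowest and highest values were 3.54 and 6.88 on day 0, 3.91 and 8.26 on day 3, and 3.11 and 7.83 on day 14. From day 3 to day 14 its log2 fold change was −0.26 (95% interval −0.49 to −0.04, adjusted p = 0.103), with 11 of 15 animals lower. With the animal as a block this comparison passed the test (limma adjusted p = 0.0352), but not with block and RNA integrity covariate together. The other BH3-only members did not pass with the block. Their adjusted p-values in the fit with TMM and without the block lay between 0.415 and 0.953.

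**Figure D3:**
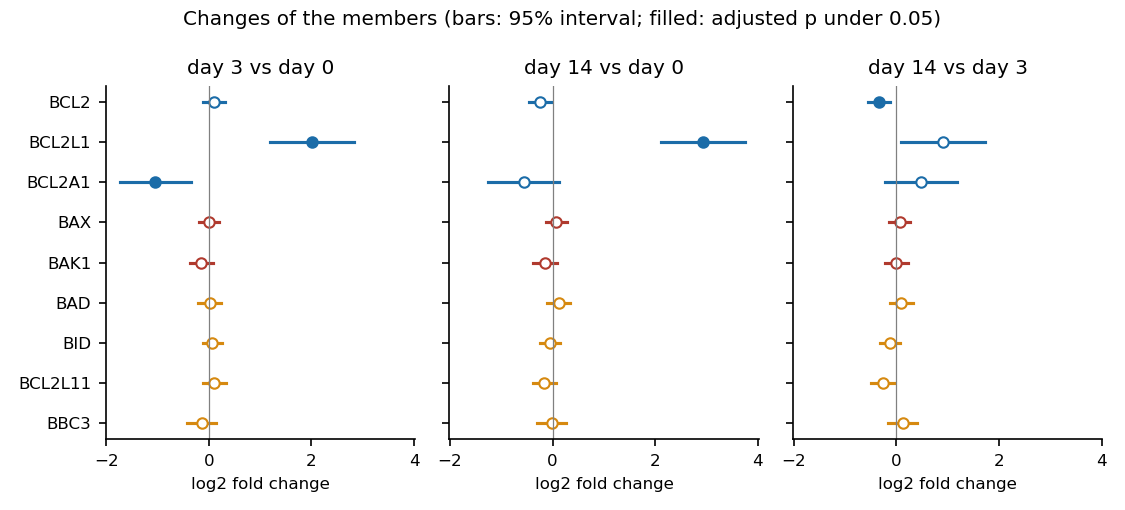
Log2 fold change of each member in the 3 comparisons, with 95% intervals from limma; filled points passed an adjusted p of 0.05, and blue, red and orange mark survival members, death effectors and BH3-only members. The intervals of the 6 death members all lie between −0.49 and 0.40, while BCL2L1 reaches 2.92 on day 14.

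Per gene length, the order of the members changed at the top and little below it. On day 0 the medians ran BCL2A1, BCL2L1, BID, BAK1, BAX, BCL2, BBC3, BAD and BCL2L11. BCL2A1 was above BCL2L1 in 11 of 15 animals, and BCL2L1 above BID in 8, which does not separate that pair from the spread between animals. BID, BAK1 and BAX, with medians of 26.5, 26.3 and 25.9 scaled FPKM, were not separated either (9 and 7 of 15 animals). BAX was above BCL2 in 14 animals, BCL2 above BBC3 in 13, BBC3 above BAD in 8, and BAD above BCL2L11 in 15.

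On days 3 and 14 BCL2L1 stood first and above BCL2A1 in 15 of 15 animals. BCL2A1 and BID on day 3 (8 of 15 animals), BAX and BAK1 on day 3 (9 of 15) and BAX and BID on day 14 (8 of 15) were not separated, nor were BBC3 and BAD on either day (7 and 9 of 15 animals higher for the first of each pair in the order). BCL2 stayed sixth and BCL2L11 ninth on all 3 days.

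Among the 9 members, BCL2L1 had the highest median share of the summed FPKM on days 3 and 14, a sum that lacks MCL1 and the family genes outside the list, such as the more abundant BNIP3L. Its share had a lowest value of 3.79%, a median of 15.5% and a highest value of 37.0% on day 0. These were 28.5%, 49.9% and 76.4% on day 3 and 29.7%, 62.0% and 87.2% on day 14. The median share of BCL2A1 was 26.0%, 11.1% and 8.81% on the 3 days, that of BCL2 8.50%, 5.63% and 2.83%, and that of BAX 10.8%, 8.06% and 6.61%. The median sum of the 9 members was 200 scaled FPKM on day 0, 305 on day 3 and 473 on day 14, while the sum of the other 8 was 169, 151 and 157.

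**Figure D4:**
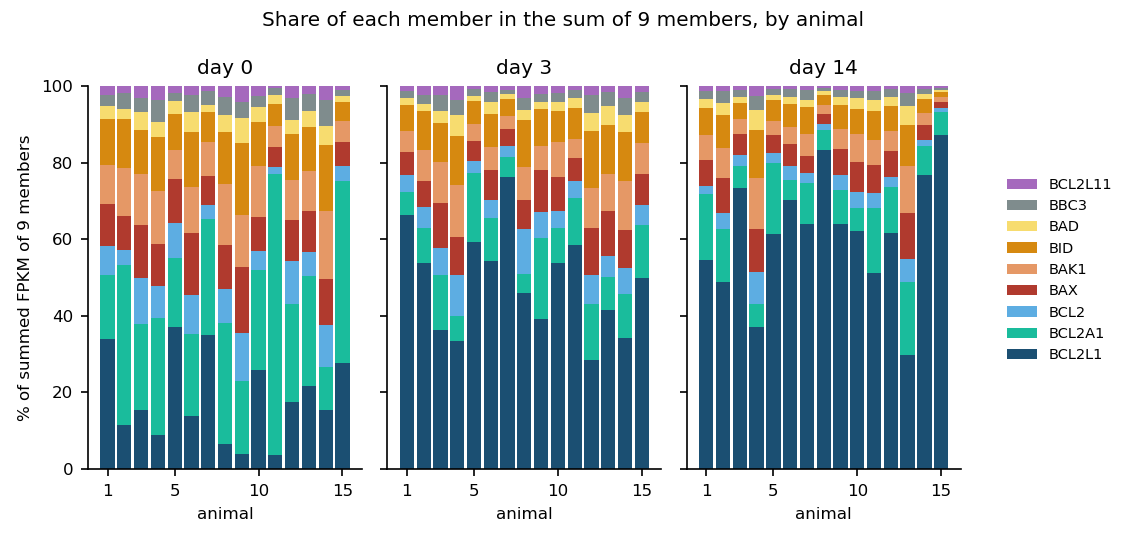
Share of each member in the summed FPKM of the 9 members, as stacked bars for each of 15 animals on days 0, 3 and 14. BCL2L1 (dark blue, at the base) has a median share of 15.5% on day 0 and 62.0% on day 14, and BCL2A1 (green) takes 73.3% in animal 11 on day 0.

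The balance of survival over death members was the log2 ratio of the summed FPKM of 3 survival to 6 death members in each library. Library scaling does not change this value, and it lacks MCL1. In whole blood it sums RNA of different cell types, so it is not the balance within any cell. BCL2L1 had r = 0.938 with the erythroid sum, while r of the 6 death members with that sum lay between −0.129 and 0.402. On day 0 the ratio had a lowest value of −0.85, a median of 0.39 and a highest value of 1.92, and it was above 0 in 10 of 15 animals. On day 3 it ran from 0.03 to 2.43 with a median of 1.05, and on day 14 from 0.09 to 4.05 with a median of 1.72, above 0 in 15 of 15 animals at both. Its mean was 0.38 ± 0.82 (SD, n = 15), 1.01 ± 0.73 and 1.80 ± 1.01. Within animals it changed by 0.63 ± 0.75 from day 0 to day 3, higher in 11 animals, and by 1.43 ± 1.19 from day 0 to day 14, higher in 13.

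Against day 0 the direction of this balance rested on BCL2L1. Without BCL2L1 the ratio of BCL2 and BCL2A1 to the death members changed by −0.74 ± 0.87 from day 0 to day 3, lower in 12 of 15 animals, and by −0.49 ± 0.81 from day 0 to day 14, lower in 11. From day 3 to day 14 it changed by 0.25 ± 0.48, against 0.79 ± 1.15 with BCL2L1, and was higher in 10 of 15 animals either way. Taken as a difference of mean log2 values, in which each member weighs the same, the balance of all 9 members changed by 0.37, 0.74 and 0.37 in the 3 comparisons, higher in 12, 14 and 9 animals. No test was made of these sums. Against BAX alone, BCL2L1 had a mean log2 ratio of 0.53, 2.54 and 3.39 on the 3 days, BCL2A1 of 1.37, 0.33 and 0.74, and BCL2 of −0.60, −0.51 and −0.92.

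**Figure D5:**
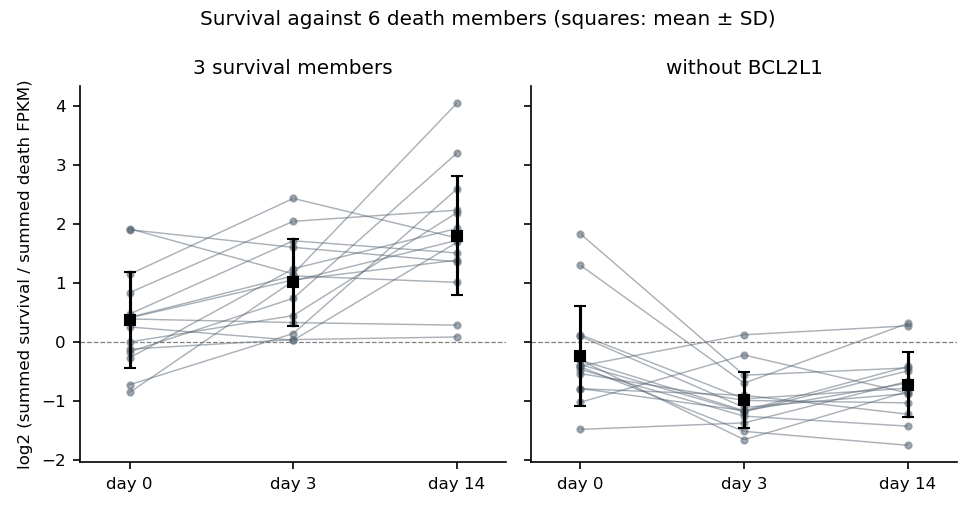
Log2 ratio of summed survival to summed death FPKM in whole blood of 15 animals on days 0, 3 and 14. It is shown with all 3 survival members and without BCL2L1, and squares are means with SD. The mean climbs from 0.38 to 1.80 with BCL2L1 and lies below 0 on all 3 days without it.

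Animals differed in BCL2L1 and BCL2A1 far more than in the other members. On day 0 the SD of log2 values over 15 animals was 1.36 for BCL2L1 and 1.27 for BCL2A1, where the median tested gene had 0.43, and 97.7% and 96.8% of tested genes had a lower SD. On day 14 these SD were 1.18 and 0.83, above 97.7% and 89.7% of genes. BAK1, BAX and BID were among the steady genes on day 14, with SD of 0.18, 0.20 and 0.21 and lower values in 5.27%, 9.0% and 9.64% of tested genes. On day 0 the SD of BAK1 was 0.41 and that of BBC3 0.51. These ranks are among all tested genes, many with fewer fragments, and the part of abundance in them was not tested.

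Over the 45 libraries, the BH3-only members BID and BBC3 and the effector BAK1 varied together, with r = 0.676 between BAK1 and BBC3, 0.652 between BID and BBC3 and 0.625 between BAK1 and BID. BBC3, BAK1 and BID also had r = 0.591, 0.496 and 0.472 with the neutrophil sum. Between the survival members r was 0.06 for BCL2L1 and BCL2A1 (0.446 after the day means were removed), −0.08 for BCL2L1 and BCL2 (0.153), and −0.30 for BCL2A1 and BCL2 (−0.313). These correlations describe libraries of which 3 each come from 1 animal, and the members share the library scaling.

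Among 10938 genes with a mean of at least 5 CPM (counts scaled to the library total), those most like BCL2L1 were MARCH8 (r = 0.982), RNF10 (0.980) and FOXO3 (0.971), with r of 0.971, 0.962 and 0.957 after the day means were removed. Those most like BCL2A1 were ATG3 (0.900), LACTB (0.898) and RGS2 (0.890). BAX was closest to LAMTOR2 (0.830), BATF and CD63, BAK1 to ORAI1 (0.787), SIRT7 and ESRRA, and BBC3 to MID1IP1 (0.773), NINJ1 and NEU1. BID was closest to TPST2 (0.772), BCL2 to CUBN (0.743), BAD to ABHD17A (0.720) and BCL2L11 to MIEF1 (0.700). The likeness is that of log2 scaled FPKM over 45 libraries.

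The remaining BCL2 family was taken from a list of 13 genes, of which 12 were found and 10 tested. In the order day 3 against day 0, day 14 against day 0 and day 14 against day 3, limma called 2 of the 10 (1 rise, 1 fall), 2 (both rises) and 3 (2 rises, 1 fall), with median log2 fold changes of 0.12, 0.06 and 0.04. For these and the lists that follow, the shares of all tested genes called in the same order were 12.2%, 36.0% and 13.4%. BNIP3L (NIX), which marks mitochondria for removal in maturing red cells, went from 1501 ± 1668 scaled FPKM (SD, n = 15) on day 0 to 1959 ± 1833 on day 3 and 5400 ± 3369 on day 14. Its log2 fold change was 2.15 from day 0 to day 14 (limma adjusted p = 4.00e-05, 15 of 15 animals) and 1.59 from day 3 to day 14 (adjusted p = 0.00834). BCL2L13, a relative with a role in mitochondrial turnover, rose from 5.37 ± 1.22 to 7.83 ± 1.67 on day 3 and 9.73 ± 2.98 on day 14, each in 14 of 15 animals.

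Of the BH3-only genes outside the 10, BMF and PMAIP1 passed the test between day 3 and day 14, while BIK did not (0.09, limma adjusted p = 0.803). BMF fell from 3.15 ± 1.09 to 2.0 ± 0.53 scaled FPKM between day 3 and day 14 (log2 fold change −0.60, limma adjusted p = 0.0126, 13 of 15 animals). PMAIP1 (NOXA), which neutralises MCL1, rose from 10.4 ± 1.99 to 14.3 ± 2.36 (0.46, adjusted p = 0.0304, 13 animals), a call lost without TMM (0.08, adjusted p = 0.754) and with RNA integrity as a covariate (0.122). It had fallen from 16.3 ± 7.63 on day 0 to that day 3 level (−0.55, adjusted p = 0.00966, 11 of 15 animals), and from day 0 to day 14 its log2 fold change was −0.10 (adjusted p = 0.639).

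Of the caspase activation genes, downstream of the mitochondrial pore, 21 were tested. In the same order of comparisons, 5 were called (2 rises, 3 falls), then 11 (7 rises, 4 falls), then 4 (all rises), with median log2 fold changes of 0.05, 0.02 and 0.07. With RNA integrity as a covariate 3, 7 and 2 were called, beside 7.66%, 19.9% and 6.05% of all genes. With the animal block 7, 14 and 4 were called, beside 19.2%, 44.0% and 23.7%. APAF1, the scaffold that cytochrome c assembles, fell from 46.9 ± 25.2 to 25.5 ± 4.53 scaled FPKM on day 14 (−0.72, limma adjusted p = 8.36e-04, 14 of 15 animals). CASP8, the death receptor caspase that cleaves BID, fell from 124 ± 29.8 to 89.7 ± 9.73 on day 3 (−0.44, adjusted p = 0.00149) and stood at 96.5 ± 10.8 on day 14 (−0.33, adjusted p = 0.00287).

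Further caspase pathway genes were called, not all of which are named here, and those named were of mixed role. HTRA2, a mitochondrial protease that releases caspases from inhibition, fell on day 3 (−0.33, adjusted p = 0.00763). BIRC5 (survivin), made in dividing cells, rose on day 3 (0.81, adjusted p = 0.00783) and on day 14 (1.08, adjusted p = 6.96e-05). VDAC3, a channel of the outer mitochondrial membrane, rose from 42.5 ± 9.94 to 93.8 ± 32.6 on day 14 (1.1, adjusted p = 1.09e-05, 15 of 15 animals). DIABLO, which frees caspases from their inhibitors, rose between day 3 and day 14 (0.48, adjusted p = 0.00902), a call lost without TMM (0.10, adjusted p = 0.558). The fall of HTRA2 was of similar size without TMM (−0.37) but missed the threshold (adjusted p = 0.104).

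Of 20 regulators that act on the family, the 3 comparisons called 5 (2 rises, 3 falls), 11 (6 rises, 5 falls) and 4 (2 rises, 2 falls), with median log2 fold changes of 0.08, −0.02 and 0.06. With RNA integrity as a covariate 5, 8 and 1 were called, beside 7.66%, 19.9% and 6.05% of all genes. With the animal block 8, 13 and 6 were called, beside 19.2%, 44.0% and 23.7%. AKT2, a kinase of growth factor signalling, rose from 23.6 ± 6.27 to 39.3 ± 12 scaled FPKM on day 3 and 59.9 ± 27.5 on day 14 (1.24, limma adjusted p = 3.64e-06). FOXO3, a transcription factor that AKT restrains, rose from 76.1 ± 62.6 to 185 ± 128 on day 3 (1.43, limma adjusted p = 0.0130, 14 of 15 animals). FOXO3 had r = 0.971 with BCL2L1, which had r = 0.938 with the erythroid sum. The part of erythroid cells in the rise of FOXO3 was not tested. BAG1, a co-chaperone that binds BCL2, rose from 20.7 ± 5.81 to 44.0 ± 18.9 on day 14 (1.02, adjusted p = 9.56e-06).

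Regulators that fell included CREB1, a transcription factor that can induce BCL2, and FBXW7, a ubiquitin ligase subunit that targets MCL1. CREB1 went from 29.6 ± 4.09 to 22.7 ± 2.95 scaled FPKM on day 3 (−0.38, limma adjusted p = 0.00152, 14 of 15 animals) and FBXW7 from 18.8 ± 4.20 to 14.3 ± 1.74 (−0.38, adjusted p = 0.00284, 14 animals). STAT5A, a cytokine-driven inducer of BCL2L1, fell from 20.7 ± 3.79 to 16.7 ± 3.68 between day 3 and day 14 (−0.32, adjusted p = 0.0378, 12 of 15 animals). MARCH5, a mitochondrial ubiquitin ligase, rose over the same interval (0.35, adjusted p = 0.0402, 12 animals), and had the opposite sign without TMM (−0.03, adjusted p = 0.849). The log2 fold change of STAT5A stayed at −0.32 with RNA integrity as a covariate (adjusted p = 0.0706) and without a filter on low values (0.0584), where it missed the threshold.

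The balance of rises and falls in these lists depended on the scaling. Without TMM, the comparison of day 14 with day 0 called 2 rises and 5 falls among the 10 other BCL2 family genes, 3 and 11 among the 21 caspase activation genes, and 3 and 9 among the 20 regulators, with median log2 fold changes of −0.36, −0.40 and −0.44. All tested genes then had 7.79% up, 41.8% down and a median of −0.36, so the lists leaned downward as all genes did. For day 14 against day 3 these counts were 1 and 2, 1 and 6, and 0 and 11, beside 3.23% and 35.2% of all genes.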

How the data were processed

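RNA from whole blood in PAXgene tubes was depleted of ribosomal and globin RNA, and stranded libraries were sequenced as paired-end reads by the authors. The authors used STAR for alignment and HTSeq to count fragments on genes; bcl2fastq 2.17 stands in the submitters' processing notes. The deposited values are FPKM, 1 table per sample, with no scaling between libraries beyond the total on genes. Whole fragments were recovered from the steps of the FPKM values (100% whole within 0.01, for 33635 genes above 0), which gave the depth and a filter of more than 0.5 CPM in at least 3 samples. TMM factors were computed from tested genes. As FPKM are not counts, log2(scaled FPKM + 0.1) was fitted with limma 3.58.1 (R 4.3.3), with 1 mean per time point over all 45 libraries, in place of the count model of the study.

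Samples were grouped by the day in their labels, and the labels also give the animal. Same-animal libraries correlated after removal of the day means (mean r = 0.328 over 45 pairs, against −0.0231 for different animals, across genes), so an animal block was an alternative; the fit without it treats the libraries of an animal as independent. Other alternatives were no TMM, TMM over all genes (chosen after seeing the data), other pseudocounts and filters, RNA integrity (from the study's supplement) as a covariate, limma-voom on recovered fragments, and each animal left out. The code was tested on simulated data.

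The members and gene lists were chosen with earlier results of these data known. All found members are described. Of each list and comparison, at most 2 called genes per direction with the lowest adjusted p are named, with a mean of at least 5 CPM and the same direction in at least 12 of 15 animals, and 3 genes most like each member. 3 list genes, CYCS and TRAT1 among them, were matched by RefSeq gene identifier. Some genes that the rule names are not reported here. BCL2L2, XIAP, GYPB and PF4 were not matched.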

Additional observations from a re-analysis of the deposited data

How the results depend on the processing

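Member values and the counts of members and other pathway genes called were recomputed under each alternative fit, and the survival to death ratio without BCL2L1 and as mean log2 values. Leaving aside the fits without 1 animal, 284 of these kept their direction and side of the threshold (counts: within 1.5 times), 18 newly passed or rose, 13 were lost or shrank, and 21 changed sign. In the fits without 1 animal these numbers were 480, 4, 34 and 22. On day 3 vs. day 0 the members called fell from 2 to 1 without the filter on low values and with the RNA integrity covariate. On day 14 vs. day 0 they went from 1 to 8 without TMM (1 up and 7 down), and to 2 with TMM over all genes and with the replicate block by animal. On day 14 vs. day 3 they went from 1 to 4 without TMM (all down), to 2 with the replicate block, and to 0 without the filter, with the RNA integrity covariate, and with block and covariate together. The block changed no other member's call. The 11 other pathway genes called on day 14 vs. day 3 became 21 without TMM, 7 without the filter, 5 with the covariate and 7 with block and covariate. Apart from that ratio, below, the sign changes were of values that did not pass the test with TMM, in the order day 3 vs. day 0, day 14 vs. day 0, day 14 vs. day 3. Without TMM, BAX became −0.037, −0.35 and −0.31, BAD −0.025, −0.30 and −0.28, and BBC3 −0.26 in the last. With the RNA integrity covariate BAX became −0.068, −0.078 and −0.0097, and BAD −0.086, −0.097 and −0.011. With block and covariate BAX became −0.049 and −0.037 in the first 2, BAD −0.099, −0.12 and −0.024, and BBC3 0.024 on day 14 vs. day 0. Of these, BAX at −0.35 passed the test. Without BCL2L1 the survival to death change became −0.738 on day 3 and −0.489 on day 14, as the sum then lacks the member that rose. With each animal left out in turn, the members called numbered 1 to 2, 1 to 2 and 0 to 1 in the 3 comparisons, and the other pathway genes 10 to 14, 22 to 25 and 3 to 13. Values near 0 crossed it: BAX −0.037 to 0.046 and BAD −0.037 to 0.063 on day 3 vs. day 0, BBC3 −0.079 to 0.044 on day 14 vs. day 0, and BAK1 −0.040 to 0.037 on day 14 vs. day 3. The ratio changed by 0.545 to 0.734, 1.29 to 1.57 and 0.641 to 0.895. The fewest pathway genes on day 14 vs. day 3, 3 genes, came without animal 8, and leaving out animal 2, 3, 9, 12 or 14 gave 5 or 6. The cause of the moves with the filter, the covariate and single animals was not tested. The member values rest on 57 or more fragments per library, and the part of counting error in their spread was not tested.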
